A study of Rattus norvegicus with 43 samples.

Results

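The thiazide-sensitive sodium chloride cotransporter of the distal nephron and the kinases, ubiquitin ligase parts and channels that act with it were followed in rat kidney cortex through 10 genes: Slc12a3, Wnk1, Wnk4, Stk39, Oxsr1, Klhl3, Cul3, Kcnj10, Kcnj16 and Trpm6. They were taken by gene name from the 2 deposited expression tables, where each had 1 row, 10 of 32545 genes listed on normal salt and 10 of 34899 on high salt. The study measured poly(A) RNA of kidney cortex from male Dahl salt-sensitive rats, a strain in which dietary salt raises blood pressure, and asked how time of day, genotype and dietary salt change it. Rats had the genotype SSper1-/- (called Per1KO here) or were SS wild type, ate 4% NaCl (high salt) or 0.4% NaCl (normal salt) for 3 weeks, and were sampled at 2am in the active phase or at 2pm in the inactive phase. On high salt there were 5 libraries each of Per1KO at 2am, SS at 2am, Per1KO at 2pm and SS at 2pm. On normal salt there were 5 of Per1KO at 2am, 6 of SS at 2am, 6 of Per1KO at 2pm and 6 of SS at 2pm. All groups share the SS background. The ages of the rats, and the part of Per1 that was altered, were not stated in the sources read here. Values are FPKM, a fragment count divided by transcript length and by the size of the library, and differences are on the log2(FPKM + 1) scale with their SE. A difference passed when limma's Benjamini-Hochberg adjusted p, taken over all genes tested, was below 0.05.

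The cotransporter NCC, the product of Slc12a3, reabsorbs sodium and chloride in the distal convoluted tubule and is the target of thiazide diuretics. WNK1 and WNK4 phosphorylate the kinases SPAK (Stk39) and OSR1 (Oxsr1), which phosphorylate and activate NCC, while a ubiquitin ligase built of KLHL3 and CUL3 marks WNK kinases for degradation. Much of this control acts on the proteins, which mRNA levels do not show. The basolateral channel Kir4.1/Kir5.1 (Kcnj10 and Kcnj16) sets the membrane voltage through which extracellular potassium acts on WNK4, and TRPM6 is the magnesium channel of the luminal membrane of the same cells.

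RefSeq promoter windows were matched for 9 of the 10 genes, with 11 start sites in all. Each window holds the 250 bases before a start site in the assembly GRCr8, and was searched on both strands for the E-box CACGTG and D-box TTATGNAA of the clock, the RORE half-site AGGTCA, the glucocorticoid response half-site AGAACA and the TATA box TATAAA. These letters were found in 5.59%, 3.28%, 14.1%, 17.5% and 12.9% of all 33469 windows of that length. Of the 11 windows, 1 held the TATA box and 2 overlapping ones the glucocorticoid half-site, and none held the letters of the other motifs. The windows of Slc12a3, the gene of the cotransporter, and of Trpm6, the gene that passed in the most time comparisons, are shown, with TATAAA in capitals in the first (bases -32 to -27 from the start) and AGAACA in capitals in the second (bases -26 to -21):
Slc12a3, chr19:10675051-10675300, minus strand: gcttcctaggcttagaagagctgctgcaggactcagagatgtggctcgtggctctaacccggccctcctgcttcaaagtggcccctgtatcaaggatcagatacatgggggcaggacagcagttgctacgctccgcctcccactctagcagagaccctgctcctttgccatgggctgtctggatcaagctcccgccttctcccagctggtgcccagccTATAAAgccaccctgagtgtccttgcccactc
Trpm6, start site 2, chr1:225596058-225596307, plus strand: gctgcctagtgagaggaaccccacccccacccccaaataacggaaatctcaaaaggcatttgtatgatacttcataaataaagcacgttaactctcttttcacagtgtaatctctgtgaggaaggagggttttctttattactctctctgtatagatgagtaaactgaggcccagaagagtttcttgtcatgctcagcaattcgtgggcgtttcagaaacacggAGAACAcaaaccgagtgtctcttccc
A match of letters is a description of the window and not a shown binding site.

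The libraries held 15.3 to 27.6 M fragments on high salt and 24.0 to 41.6 M fragments on normal salt, with M for mega. Per1 mRNA did not pass by genotype label in any group: at 2am on high salt Per1KO libraries held 9.13 to 12.2 FPKM against 4.98 to 11.3 FPKM in SS, and at 2pm 8.64 to 20.9 against 8.57 to 20.0 FPKM. On normal salt Per1KO held 9.50 to 14.3 FPKM at 2am, against 8.29 to 20.3 in SS, and 7.94 to 21.9 FPKM at 2pm, against 12.7 to 26.9 in SS. The log2 differences of Per1, label Per1KO minus SS, were 0.35 ± 0.24, 0.26 ± 0.24, -0.16 ± 0.23 and -0.16 ± 0.22 in that order, with adjusted p of 0.39, 0.45, 0.76 and 0.74. Per1KO therefore means the libraries labelled Per1KO throughout, and each genotype direction rests on the label. The times and genotypes mostly carry separate series of library numbers, so that time, genotype and library series cannot be told apart outside high salt at 2pm, where both genotypes have libraries of 2 series. SS at 2pm on normal salt alone has library names that start with OK. Of the 6 markers of the distal convoluted tubule, Egf (15.4 to 47.0 FPKM), Emx1 (6.29 to 24.3), Cnnm2 (8.08 to 26.4), Tfap2b (3.67 to 10.5) and Sall3 (0.051 to 3.08) were present, and Pvalb was at or near 0 in all 43 libraries (at most 0.115 FPKM).

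Among these genes Kcnj16 had the highest level and Trpm6 the lowest. The median over 43 libraries was 335 FPKM for Kcnj16, 102 for Slc12a3, 41 for Wnk1, 23.9 for Cul3, 16.8 for Oxsr1, 11.5 for Kcnj10, 9.47 for Stk39, 6.82 for Klhl3, 5.15 for Wnk4 and 4.81 for Trpm6. The highest group mean exceeded the lowest by 1.32-fold for Oxsr1, the narrowest span, and by 1.84-fold for Trpm6, the widest. When the 8 groups of a gene were ordered by mean, the ranges of all 7 pairs of neighbours overlapped for every one of the 10 genes.

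**Figure D1:**
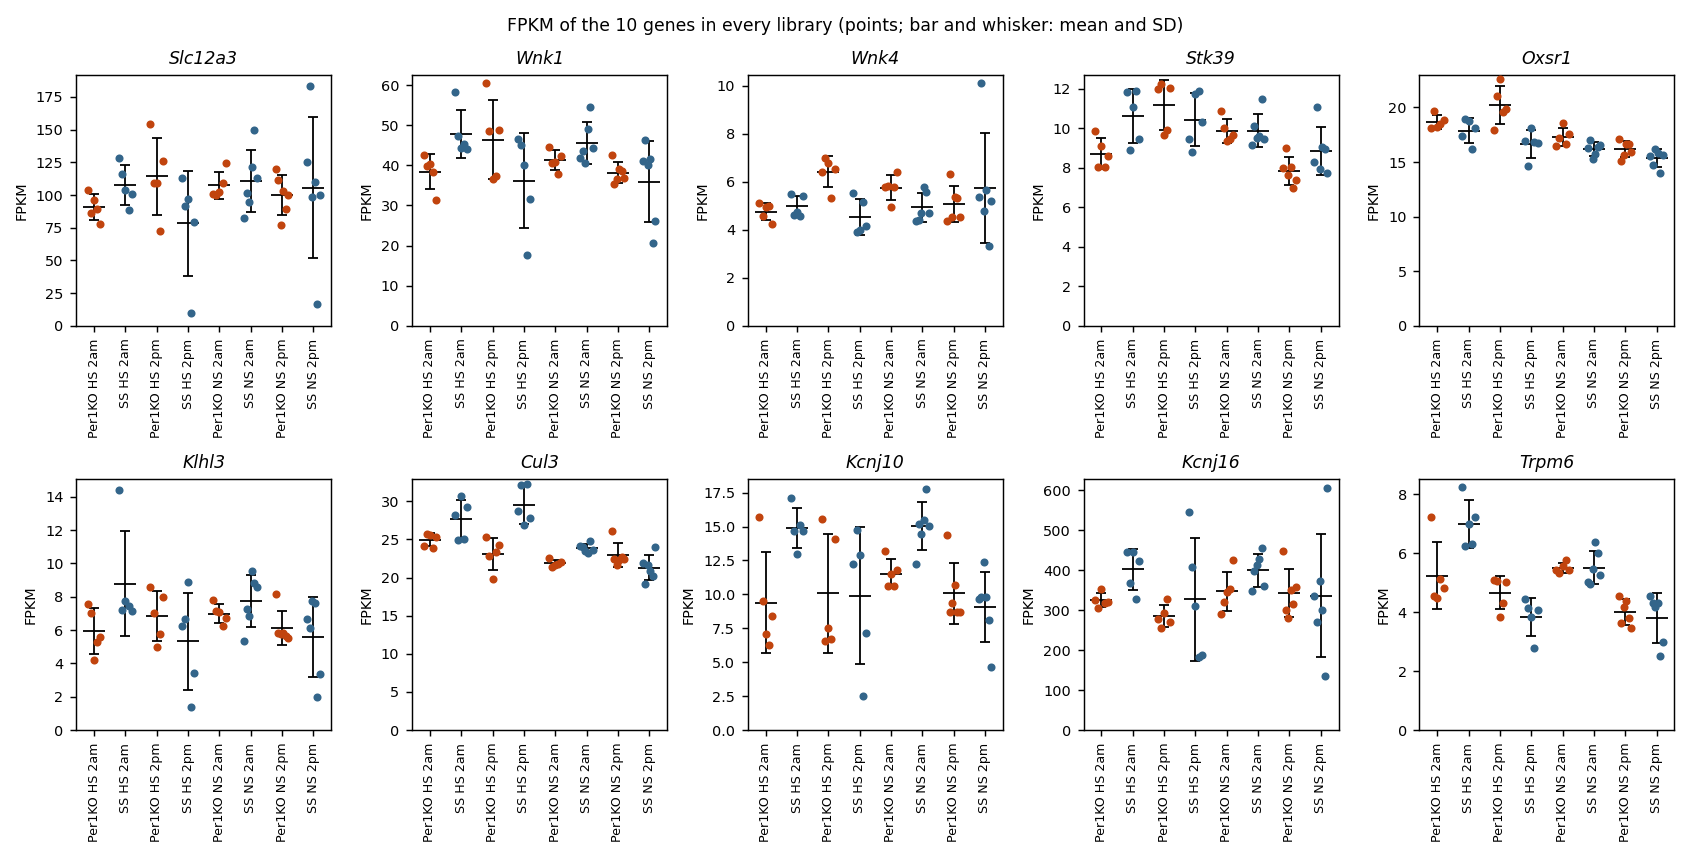
FPKM of the 10 genes in each of the 43 libraries, by genotype, diet (HS, 4% NaCl; NS, 0.4% NaCl) and time; points are libraries (Per1KO red, SS blue), and the bar and whiskers are the group mean and SD. In Slc12a3 a library of SS HS 2pm at 9.99 FPKM and one of SS NS 2pm at 16.3 FPKM lie far below the rest, and in Trpm6 all SS libraries at 2am lie above all SS libraries at 2pm of the same diet.

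Between the times of day, Trpm6 was the gene that rose most regularly. In SS kidneys on high salt 1 of 10 genes, Trpm6, was higher at 2am than at 2pm and passed, where 5.44% of all 14899 genes tested passed and 2.85% passed upward. In SS kidneys on normal salt 4 of 10 passed (Wnk1, Cul3, Kcnj10 and Trpm6), all higher at 2am, where 26.3% of all 13436 genes passed and 14.3% passed upward. Without SS 2pm replicate 5, a library that stands apart (described with Slc12a3), 3 of 10 passed there, Wnk1 no longer among them. In Per1KO kidneys 0 of 10 passed on high salt, where 0.262% of all genes passed. There 2 of the 10 had an unadjusted p below 0.05, as had 15.9% of all genes. On normal salt 2 of 10 passed in Per1KO (Stk39 and Trpm6), both higher at 2am, where 3.11% of all genes passed and 1.66% passed upward. The median log2 difference of the 10 genes, 2am minus 2pm, was -0.14 in Per1KO and 0.44 in SS on high salt, and 0.13 in Per1KO and 0.35 in SS on normal salt, beside medians over all genes between -0.004 and 0.002. Both SS medians depend on 2pm libraries that stand apart. Without SS 2pm replicates 4 and 5 on high salt, only Trpm6 (0.63) exceeded 0.44. The other genes then ran from -0.08 (Cul3) to 0.21 (Klhl3). Without SS 2pm replicate 5 on normal salt, only Kcnj10 (0.69) and Trpm6 (0.37) exceeded 0.35. The test of whether the time difference itself differed between genotypes passed for 0 of 10 genes on either diet, where 0.101% of all genes passed on high salt and 2.81% on normal salt. At an unadjusted p below 0.05, 6 of the 10 met that test on high salt, where 13.7% of all genes did. This high salt count depends on SS 2pm replicates 4 and 5. When they were left out, Stk39, Trpm6 and Wnk4 still met it, and Wnk1, Oxsr1 and Klhl3 did not. For normal salt 2 of the 10 met it, where 23.4% of all genes did, so that this count was near the share of all genes.

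**Figure D2:**
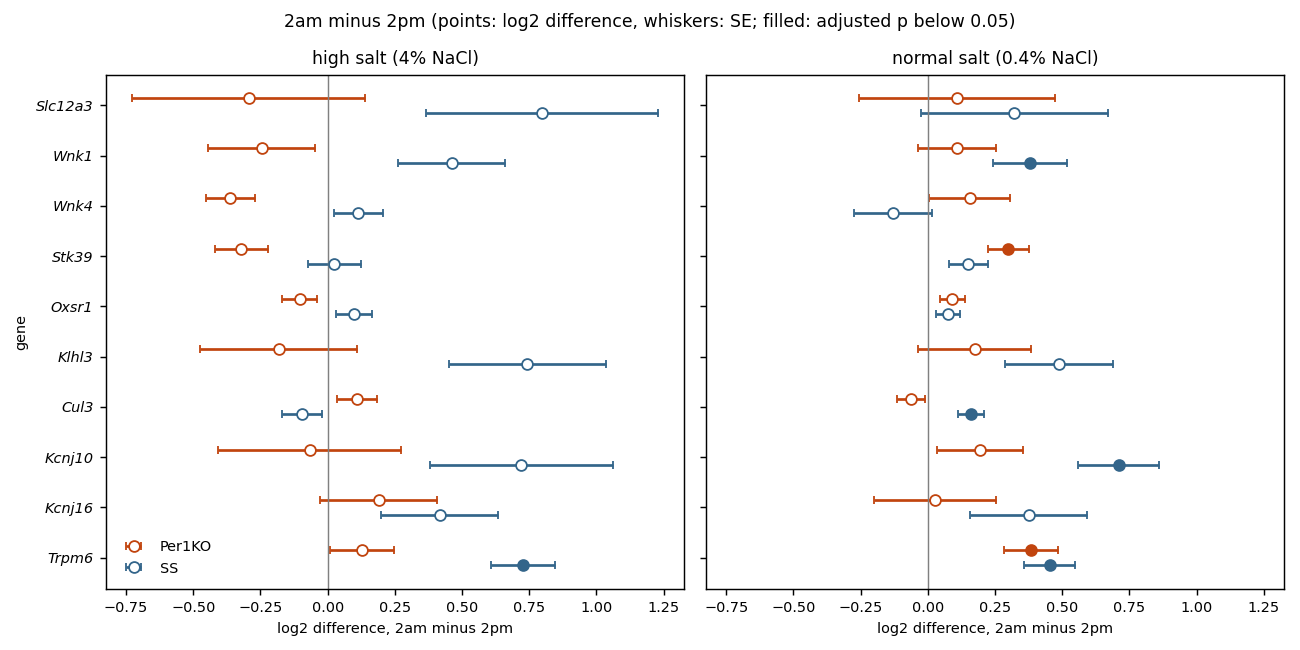
Log2 difference in FPKM + 1, 2am minus 2pm, of the 10 genes on high salt (left) and normal salt (right), with Per1KO in red and SS in blue; whiskers are the SE and filled points passed. Trpm6 in SS is filled on both diets (0.73 and 0.45), and in Per1KO Stk39 (0.30) and Trpm6 (0.38) are filled on normal salt.

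Between the genotypes, no gene of the 10 passed at 2am or on normal salt. On high salt at 2pm 3 of 10 passed, Wnk4 and Oxsr1 higher and Cul3 lower in Per1KO, where 29.8% of all genes passed, so that the share among the 10 was near that of all genes. Without SS 2pm replicates 4 and 5, which also stand apart, 4 of 10 passed, Kcnj16 in addition, and on high salt Trpm6 was again the 1 gene that passed by time in SS. At 2am on high salt 0 of 10 passed, where 8.95% of all genes passed. On normal salt 0 of 10 passed at 2am and 0 of 10 at 2pm, where 4.18% and 0.372% of all genes passed. In each of these 3 comparisons 2 of the 10 had an unadjusted p below 0.05, near the shares of all genes, which were 23.9% at 2am on high salt, and 19.7% at 2am and 15% at 2pm on normal salt. The median log2 difference of the 10, Per1KO minus SS, was -0.28 at 2am and 0.25 at 2pm on high salt, and -0.07 at 2am and 0.12 at 2pm on normal salt, beside medians over all genes between -0.021 and 0.003. On high salt these comparisons depend on the scaling: with raw fragment totals as library size, all genes had a median of 0.25 at 2pm and of 0.16 at 2am. The 2pm medians of the 10 also depend on SS libraries that stand apart. Without SS 2pm replicates 4 and 5 on high salt, only Oxsr1 (0.27) and Wnk4 (0.45) exceeded 0.25. Kcnj16 (-0.53), Kcnj10 (-0.45), Cul3 (-0.33) and Klhl3 (-0.08) were then negative. Without SS 2pm replicate 5 on normal salt, only Kcnj10 (0.14), Cul3 (0.09) and Oxsr1 (0.05) were positive.

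**Figure D3:**
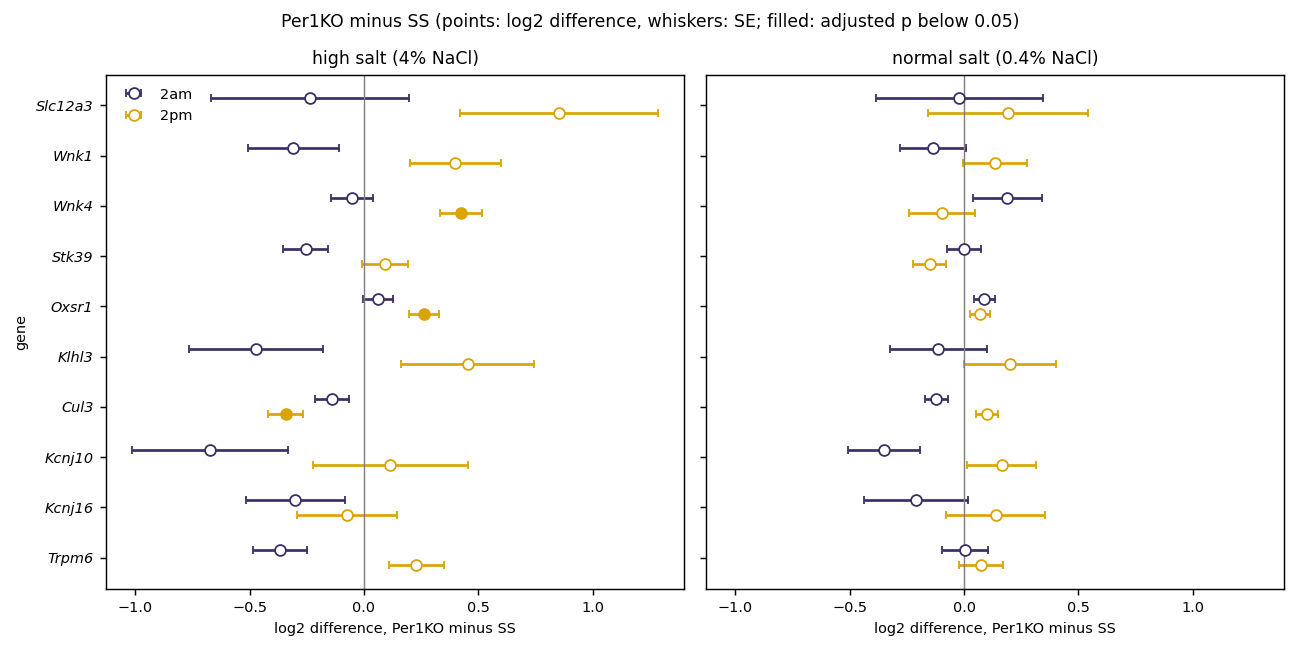
Log2 difference in FPKM + 1, Per1KO minus SS, of the 10 genes on high salt (left) and normal salt (right), at 2am (violet) and 2pm (yellow); whiskers are the SE and filled points passed. Filled points stand only at 2pm on high salt: Wnk4 (0.42), Oxsr1 (0.26) and Cul3 (-0.34).

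Markers of other cell types moved with some of the same groups. On high salt at 2pm the summed FPKM of 5 macrophage markers lay at 114 to 190 in Per1KO, against 75.6 to 90.7 in SS, and all 5 passed. The 4 fibroblast markers summed to 206 to 306 FPKM in Per1KO, against 115 to 196 in SS, and all 4 passed. The 6 proximal tubule markers summed to 1045 to 1804 FPKM in Per1KO, against 739 to 3877 in SS, and 1 of 6 passed, lower. SS replicates 4 and 5 had 739 and 1415 FPKM, and SS replicates 1, 2 and 3 had 3877, 2992 and 2635. At 2am the macrophage sum reached 122 to 150 FPKM in Per1KO, against 53.8 to 114 in SS, and 3 of 5 passed. In SS on normal salt the macrophage sum was 76.7 to 109 at 2am and 91.8 to 134 at 2pm, with 3 of 5 markers lower at 2am, and the sum of 6 proximal tubule markers was 3160 to 4018 at 2am and 1381 to 3618 at 2pm, with 2 of 6 higher. In SS on high salt, where Trpm6 passed by time, the sum of 5 connecting tubule and principal cell markers was 130 to 189 FPKM at 2am and 182 to 390 at 2pm, with 2 of 5 lower at 2am. The sum of 5 thick ascending limb markers there was 889 to 1983 FPKM at 2am and 921 to 2681 at 2pm, with 1 of 5 lower. Of all genes, 29.8% passed by genotype on high salt at 2pm and 8.95% at 2am. By time in SS 26.3% of all genes passed on normal salt and 5.44% on high salt. The counts of proximal tubule markers, 1 of 6 by genotype and 2 of 6 by time, were thus near or below the shares of all genes. None of these markers was at 0 in any library, and their part in the results below was not tested.

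Slc12a3, which encodes NCC (gene ENSRNOG00000057072, chromosome 19, 11106033 to 11144641, minus strand, in the files' build, for which the sources used here give no name), passed in none of the comparisons of genotype or time. On high salt it had 104, 86.5, 96.5, 89.0 and 77.9 FPKM in Per1KO at 2am, and 128, 116, 104, 88.9 and 101 FPKM in SS at 2am. At 2pm on high salt it had 155, 109, 109, 72.8 and 126 FPKM in Per1KO, and 113, 91.8, 97.0, 9.99 and 79.2 FPKM in SS. The ranges overlapped at both times, and SS replicate 4 at 2pm, at 9.99 FPKM, lay far below every other high salt library. On normal salt the lowest, median and highest values were 99.6, 102 and 125 FPKM in Per1KO at 2am, and 82.1, 107 and 150 in SS at 2am. At 2pm on normal salt they were 77.1, 102 and 120 FPKM in Per1KO, and 16.3, 105 and 183 in SS. The lowest of these, 16.3 FPKM, is SS replicate 5, and the highest is SS replicate 2 of the same group. The largest differences, Per1KO minus SS at 2pm on high salt (0.85 ± 0.43, adjusted p = 0.15) and 2am minus 2pm in SS on high salt (0.80 ± 0.43, adjusted p = 0.26), both rest on the SS 2pm group of high salt. Without SS replicates 4 and 5 of that group they were 0.14 ± 0.17 (adjusted p = 0.56) and 0.09 ± 0.17 (adjusted p = 0.87). On raw fragment totals, with all libraries, the genotype difference was 1.12 ± 0.44 and passed (adjusted p = 0.049). On normal salt the differences were -0.02 ± 0.37 by genotype at 2am, 0.19 ± 0.35 by genotype at 2pm, 0.11 ± 0.37 by time in Per1KO and 0.32 ± 0.35 by time in SS. Without SS 2pm replicate 5, the 2pm genotype difference was -0.28 ± 0.15 and the SS time difference -0.15 ± 0.15, both opposite in sign to the values with it.

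The libraries low in Slc12a3 also stood apart in markers of other cells of the cortex. In SS high salt 2pm replicate 4 the summed FPKM of 4 podocyte markers was 8.83, of 6 proximal tubule markers 739, of 5 thick ascending limb markers 2681 and of 6 distal convoluted tubule markers 44.6. In the other 4 SS libraries of that group these sums were 33.6 to 118, 1415 to 3877, 921 to 2220 and 68.8 to 81.2. SS normal salt 2pm replicate 5 had sums of 20.8 for podocytes, 1381 for the proximal tubule, 3135 for the thick ascending limb and 70.2 for the distal convoluted tubule. Its 5 group members had 74.5 to 140, 2908 to 3618, 852 to 1533 and 74.0 to 95.8. Both libraries were thus low for glomerular and proximal genes and high for thick ascending limb genes. High salt SS 2pm replicate 5, at 79.2 FPKM of Slc12a3, was shifted the same way, with 33.6 for podocytes and 2220 for the thick ascending limb. In bulk tissue, fewer cells of a type and less RNA per cell cannot be told apart, and the part of these markers in the results was not tested.

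**Figure D4:**
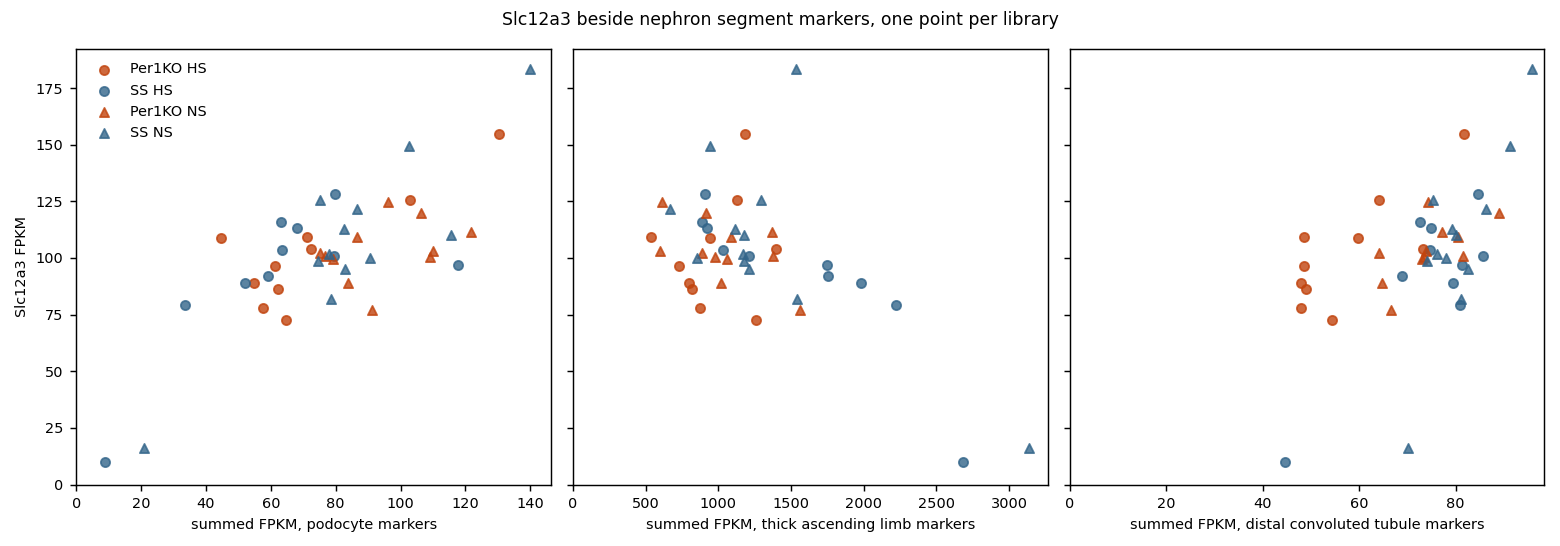
Slc12a3 FPKM (vertical) against the summed FPKM of podocyte, thick ascending limb and distal convoluted tubule markers (horizontal, left to right), 1 point per library; circles are high salt and triangles normal salt, Per1KO red and SS blue. The SS libraries at 9.99 and 16.3 FPKM have the 2 lowest podocyte sums (8.83 and 20.8) and the 2 highest thick ascending limb sums (2681 and 3135).

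The genes most like Slc12a3 across libraries were sought in the deviations of each library from its group mean. Among 8754 genes with a mean of at least 5 FPKM on both diets, the 5 with the highest lower correlation of the 2 diets were Igfbp2, Car8, Calb1, Tmem52b and Slc4a9. Calb1, which encodes the calcium-binding protein calbindin of the distal tubule, had a Pearson r of 0.91 (Spearman rho 0.87) over 20 high salt libraries and 0.95 (0.84) over 23 normal salt libraries. Igfbp2, a binding protein of insulin-like growth factors, had r of 0.92 (rho 0.82) and 0.94 (0.70), and Tmem52b, a membrane protein gene, 0.90 (0.90) and 0.96 (0.83). Car8, a carbonic anhydrase-related protein gene, had r of 0.93 (rho 0.77) and 0.91 (0.75), and Slc4a9, an anion exchanger gene of intercalated cells, 0.88 (0.69) and 0.90 (0.70). Without the 2 libraries farthest from the median of Slc12a3 on each diet, r was 0.74 to 0.85 on high salt and 0.56 to 0.78 on normal salt, so that part of the likeness on normal salt rests on those libraries. Of the other 9 genes Wnk1 was nearest, with r of 0.90 (rho 0.79) on high salt and 0.83 (0.70) on normal salt, and 0.77 and 0.54 without those libraries. Wnk4 had r of -0.11 (rho 0.02) on high salt and 0.75 (0.46) on normal salt, and 0.06 and 0.35 without those libraries. All these correlations share libraries and are descriptions.

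Wnk1 and Wnk4 encode the upstream kinases of the cascade. Wnk1 (chromosome 4, 152452848 to 152578446, minus strand) makes a full-length kinase and, in the distal convoluted tubule, a short form that lacks the kinase domain, and gene-level FPKM adds both. In SS on normal salt Wnk1 had a lowest, median and highest value of 40.5, 43.9 and 54.6 FPKM at 2am, and of 20.6, 40.5 and 46.3 FPKM at 2pm. The ranges overlapped, and the 2pm libraries at 20.6 and 26.2 FPKM, replicates 5 and 6, were the low ones. The difference of 0.38 ± 0.14 passed (adjusted p = 0.046). Without replicate 5 it was 0.24 ± 0.10 and did not pass (adjusted p = 0.092). It did not pass in 7 of 12 fits that each left out 1 library, nor in 4 of 6 other settings: no filter, the replicate block, voom on fragments and a fit of only the groups compared. On high salt Wnk1 had 42.7, 39.8, 40.3, 38.3 and 31.3 FPKM in Per1KO at 2am, and 58.3, 47.3, 44.3, 45.4 and 44.1 FPKM in SS at 2am. The 2am ranges did not overlap, with every Per1KO library below every SS library, but the difference of -0.31 ± 0.20 did not pass (adjusted p = 0.37). At 2pm it had 60.5, 48.7, 36.5, 37.3 and 48.8 FPKM in Per1KO, and 46.6, 45.1, 40, 17.7 and 31.7 FPKM in SS. These ranges overlapped, at 0.40 ± 0.20 (adjusted p = 0.14), and the value of 17.7 FPKM belongs to replicate 4, which was also lowest in Slc12a3.

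Wnk4 (chromosome 10, 89181165 to 89198213, plus strand) encodes the kinase through which intracellular chloride and extracellular potassium act on NCC. Its values at 2pm on high salt were 6.42, 6.99, 6.80, 5.34 and 6.56 FPKM in Per1KO, and 5.54, 3.92, 3.98, 5.15 and 4.16 FPKM in SS. Of the Per1KO libraries 4 lay above all SS libraries, and replicate 4 at 5.34 FPKM lay within the SS range. The difference of 0.42 ± 0.09 passed (adjusted p = 0.0022), and it was 0.45 ± 0.10 (adjusted p = 0.0037) without SS replicates 4 and 5. Of the 2 library series of that time, 1 has zero-padded numbers and the other does not. Within them it was 0.45 in the zero-padded series, 3 Per1KO against 2 SS libraries, and 0.36 in the unpadded series, 2 against 3. At 2am Wnk4 had 4.25 to 5.10 FPKM in Per1KO and 4.60 to 5.48 FPKM in SS, a difference of -0.05 ± 0.09 (adjusted p = 0.78). Between times on high salt, Per1KO had 4.25 to 5.10 FPKM at 2am and 5.34 to 6.99 FPKM at 2pm, ranges that do not overlap, and the difference of -0.36 ± 0.09 did not pass (adjusted p = 0.074). In a fit of the 2 Per1KO groups alone it passed (adjusted p = 0.034). On normal salt at 2pm Wnk4 had 4.36, 4.94 and 6.34 FPKM in Per1KO as lowest, median and highest value, and 3.34, 5.27 and 10.1 FPKM in SS, a difference of -0.10 ± 0.14 (adjusted p = 0.76). The genotype difference at 2pm was larger on high than on normal salt, by 0.52 ± 0.18 (adjusted p = 0.032, with 2 of 10 genes passing this test, where 23.1% of all 13260 genes tested in both tables passed). That difference did not pass in 8 of 22 fits that each left out 1 library, with an adjusted p of up to 0.064. Wnk4 overlaps LOC100360002 on the other strand, a gene of 308 bases at 9.45 to 32.4 FPKM on high salt. No source used here says whether the counting used strand, so reads of both genes may not be told apart.

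Stk39 (chromosome 3, 54359451 to 54625414, minus strand) encodes SPAK, the kinase that phosphorylates NCC. In Per1KO on normal salt it had 10.9, 10.03, 9.35, 9.47 and 9.64 FPKM at 2am, and 6.96, 7.81 and 9.0 FPKM as the lowest, median and highest value at 2pm. The ranges did not overlap, and the difference of 0.30 ± 0.08 passed (adjusted p = 0.031). On high salt Per1KO had 9.87, 8.03, 9.09, 8.02 and 8.61 FPKM at 2am, and 12, 12.3, 9.66, 9.94 and 12 FPKM at 2pm. Here 1 library at 2am, at 9.87 FPKM, exceeded the lowest 2pm library, and the difference of -0.32 ± 0.10 did not pass (adjusted p = 0.14). The time difference in Per1KO was lower on high than on normal salt, by -0.62 ± 0.12 (adjusted p = 0.014), and Stk39 was the 1 gene of 10 to pass this test, where 3.31% of all genes passed. In SS the 2am ranges were 8.92 to 11.9 FPKM on high salt and 9.17 to 11.5 on normal salt, and the 2pm ranges 8.81 to 11.9 and 7.74 to 11.1. The SS time differences, 0.02 ± 0.10 and 0.15 ± 0.07, did not pass. For time by diet in SS 0 of 10 genes passed, where 0.0754% of all genes passed, and 1 of the 10 had an unadjusted p below 0.05, as had 14.0% of all genes. The normal salt value did not pass in 8 of 11 fits that each left out 1 library, and the time by diet value passed in all 21 such fits.

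Oxsr1 (chromosome 8, 127920349 to 128009951, minus strand) encodes OSR1, a close relative of SPAK. At 2pm on high salt it had 17.9, 21.0, 22.6, 19.6 and 19.8 FPKM in Per1KO, and 16.9, 14.6, 18.2, 16.8 and 16.8 FPKM in SS. Per1KO replicate 1, at 17.9 FPKM, lay below the highest SS library, and the other 4 lay above all SS libraries. The difference of 0.26 ± 0.07 passed (adjusted p = 0.0068). It was 0.36 in the zero-padded and 0.18 in the unpadded library series, and with series as a term it did not pass (adjusted p = 0.069). At 2am on high salt the ranges were 18.1 to 19.7 FPKM in Per1KO and 16.2 to 18.9 in SS, at 0.06 ± 0.07 (adjusted p = 0.63). On normal salt Per1KO held 16.4 to 18.6 FPKM at 2am, against 15.2 to 17.0 in SS, and 15.1 to 17.1 FPKM at 2pm, against 14.0 to 16.2 in SS. The differences there, 0.09 ± 0.05 and 0.07 ± 0.04, did not pass (adjusted p = 0.30 and 0.43).

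Klhl3 and Cul3 encode the substrate adaptor and the scaffold of the ligase that marks WNK kinases. Klhl3 (chromosome 17, 6935860 to 7029240, plus strand) passed in no comparison. In SS on normal salt its lowest, median and highest values were 5.34, 7.95 and 9.57 FPKM at 2am, and 1.97, 6.41 and 7.75 FPKM at 2pm. The ranges overlapped and the difference was 0.49 ± 0.20 (adjusted p = 0.074). On high salt Klhl3 had 14.4, 7.21, 7.72, 7.45 and 7.15 FPKM in SS at 2am, and 6.25, 6.66, 8.87, 1.37 and 3.46 FPKM in SS at 2pm, a difference of 0.74 ± 0.29 (adjusted p = 0.13). The low values of 1.37 and 1.97 FPKM belong to the libraries lowest in Slc12a3. Without them and SS high salt replicate 5 the differences were 0.28 ± 0.15 on normal salt and 0.21 ± 0.21 on high salt. Its deviations went with those of Wnk1, at r of 0.86 (rho 0.82) on high salt and 0.91 (0.88) on normal salt.

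Cul3 (chromosome 9, 86044485 to 86103158, minus strand) was the gene of the group that was lower in Per1KO. At 2pm on high salt it had 25.3, 22.8, 19.8, 23.3 and 24.3 FPKM in Per1KO, and 28.7, 32.1, 26.8, 32.3 and 27.8 FPKM in SS. All Per1KO libraries lay below all SS libraries. The difference of -0.34 ± 0.07 passed (adjusted p = 0.0025), and was -0.42 in the zero-padded and -0.27 in the unpadded library series. On raw fragment totals it was -0.12 and did not pass (adjusted p = 0.15), where the median of all genes was 0.25. At 2am on high salt Cul3 had 24.1, 25.7, 25.5, 23.9 and 25.3 FPKM in Per1KO, and 28.2, 25.0, 30.7, 25.0 and 29.2 FPKM in SS, which overlap, at -0.14 ± 0.07 (adjusted p = 0.27). On normal salt at 2am Cul3 had 21.3 to 22.5 FPKM in Per1KO and 23.2 to 24.8 FPKM in SS. All Per1KO libraries again lay below all SS libraries, but the difference of -0.12 ± 0.05 did not pass (adjusted p = 0.18). In a fit of only these 2 groups it passed (adjusted p = 0.020). On normal salt at 2pm the lowest, median and highest values were 21.6, 22.4 and 26.1 FPKM in Per1KO, and 19.1, 21.3 and 24.0 FPKM in SS, at 0.10 ± 0.05 (adjusted p = 0.33). The genotype difference at 2pm differed between diets by -0.44 ± 0.08, high minus normal salt (adjusted p = 0.00055). At 2am no gene of the 10 passed this test, and of all 13260 genes 0 passed (0.0%) with limma and 763 (5.75%) had an unadjusted p below 0.05, 2 of the 10 among them. Between times, Cul3 in SS on normal salt had 23.2, 23.8 and 24.8 FPKM at 2am, and 19.1, 21.3 and 24.0 FPKM at 2pm. The difference of 0.16 ± 0.05 passed (adjusted p = 0.019), but not without 2pm replicate 2 (adjusted p = 0.052). Per1KO on normal salt had 21.3 to 22.5 FPKM at 2am and 21.6 to 26.1 at 2pm, at -0.06 ± 0.05 (adjusted p = 0.55). The difference between these time differences, -0.22 ± 0.07, did not pass (adjusted p = 0.074).

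Kcnj10 (chromosome 13, 90723092 to 90752581, plus strand) encodes Kir4.1, the pore subunit that conducts potassium at the basolateral membrane. In SS on normal salt its lowest, median and highest values were 12.2, 15.1 and 17.8 FPKM at 2am, and 4.64, 9.73 and 12.4 FPKM at 2pm. The ranges met at 1 library of each time, and the difference of 0.71 ± 0.15 was the largest of the 10 genes on normal salt (adjusted p = 0.0023). Without 2pm replicate 5 it was 0.69 ± 0.16 (adjusted p = 0.0041). In Per1KO on normal salt the values were 13.2, 10.6, 11.5, 10.6 and 11.8 FPKM at 2am, and 8.67, 9.05 and 14.4 FPKM as lowest, median and highest at 2pm, at 0.19 ± 0.16 (adjusted p = 0.55). The 2 time differences were not shown to differ (-0.52 ± 0.22, adjusted p = 0.17). On high salt Kcnj10 had 15.7, 9.54, 7.06, 6.31 and 8.40 FPKM in Per1KO at 2am, and 17.1, 14.7, 13, 15.1 and 14.7 FPKM in SS at 2am. Of the Per1KO libraries 4 lay below all SS libraries and replicate 1 within their range, at -0.67 ± 0.34 (adjusted p = 0.23). A fit of only these 2 groups gave the same difference with an adjusted p of 0.035. At 2pm it had 15.6, 6.54, 7.50, 6.68 and 14.1 FPKM in Per1KO, and 12.3, 14.8, 12.9, 2.48 and 7.15 FPKM in SS. Values near 7 and near 15 stand in both groups, and the difference was 0.11 ± 0.34 (adjusted p = 0.83).

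Kcnj16 (chromosome 10, 99388130 to 99389898, plus strand) encodes Kir5.1, the partner subunit of Kir4.1, which proximal tubule cells also express. On high salt it had 325, 306, 354, 320 and 320 FPKM in Per1KO at 2am, and 446, 368, 445, 329 and 424 FPKM in SS at 2am, at -0.30 ± 0.22 (adjusted p = 0.43). At 2pm it had 278, 257, 293, 328 and 271 FPKM in Per1KO, and 547, 408, 312, 183 and 188 FPKM in SS. The 2 lowest SS libraries are replicates 4 and 5, and the other 3 exceeded all but 1 Per1KO library. With all libraries the difference was -0.07 ± 0.22 (adjusted p = 0.83). Without those replicates it was -0.53 ± 0.14 and passed (adjusted p = 0.0087), a choice of libraries made after the values were seen. On normal salt at 2pm the lowest, median and highest values were 280, 333 and 449 FPKM in Per1KO and 136, 318 and 606 FPKM in SS, the widest range of any group. At 2am on high salt, a fit of only the 2 genotype groups gave -0.30 ± 0.09 and passed (adjusted p = 0.049). No other comparison of Kcnj16 passed with all libraries of its groups.

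Trpm6 (chromosome 1, 234479289 to 234596971, minus strand in the files' build and plus strand in GRCr8) encodes the luminal magnesium channel. In SS on high salt it had 8.23, 6.24, 6.97, 6.30 and 7.22 FPKM at 2am, and 4.45, 4.14, 3.82, 2.77 and 4.07 FPKM at 2pm. All libraries at 2am lay above all at 2pm, and the difference of 0.73 ± 0.12 passed (adjusted p = 0.0024), as it did without SS 2pm replicates 4 and 5 (0.63 ± 0.12, adjusted p = 0.020). In SS on normal salt the lowest, median and highest values were 4.95, 5.36 and 6.37 FPKM at 2am, and 2.52, 4.23 and 4.55 FPKM at 2pm. These ranges did not overlap either, and the difference was 0.45 ± 0.10 (adjusted p = 0.0021). In Per1KO on normal salt Trpm6 had 5.42, 5.33, 5.56, 5.78 and 5.44 FPKM at 2am, and 3.47, 3.99 and 4.55 FPKM as lowest, median and highest at 2pm. All 2am libraries again lay above all 2pm libraries, at 0.38 ± 0.10 (adjusted p = 0.036). This value did not pass in 9 of 11 fits that each left out 1 library. In Per1KO on high salt it had 7.21, 4.56, 4.48, 5.14 and 4.81 FPKM at 2am, and 5.10, 5.04, 3.83, 4.33 and 5.01 FPKM at 2pm. Those ranges overlapped, at 0.13 ± 0.12 (adjusted p = 0.63), and the difference from the SS value, -0.60 ± 0.17, did not pass (adjusted p = 0.14). By genotype at 2am on high salt 4 of 5 Per1KO libraries lay below all SS libraries. The difference of -0.37 ± 0.12 did not pass (adjusted p = 0.058), and it was -0.47 ± 0.11 and passed (adjusted p = 0.0089) without Per1KO replicate 1.

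Each diet has a table of its own, so that diet and table cannot be told apart, and levels on high and normal salt are set side by side with no test. In Per1KO at 2pm 2 of the 10 genes had all high salt libraries above all normal salt libraries, Stk39 (9.66 to 12.3 against 6.96 to 9.0 FPKM) and Oxsr1 (17.9 to 22.6 against 15.1 to 17.1), where 23.1% of all genes did not overlap and 11.2% stood higher on high salt. In the 3 other pairs of groups Cul3 was the 1 gene of the 10 without overlap, higher on high salt each time. Its ranges were 23.9 to 25.7 on high salt and 21.3 to 22.5 FPKM on normal salt in Per1KO at 2am, where 21.0% of all genes did not overlap and 10.9% stood higher. In SS they were 25.0 to 30.7 on high salt and 23.2 to 24.8 on normal salt at 2am, where 6.14% did not overlap and 3.54% stood higher. At 2pm in SS they were 26.8 to 32.3 on high salt and 19.1 to 24.0 on normal salt, where 6.65% did not overlap and 3.98% stood higher. Slc12a3 overlapped between diets in every pair of groups.

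Of 15 other genes of the WNK, SPAK and KLHL3 network, 13 were tested, and Sgk1 moved most. Sgk1, a glucocorticoid- and aldosterone-induced kinase that acts on the ubiquitin ligase Nedd4-2, had in SS a lowest, median and highest value of 75.4, 148 and 194 FPKM at 2am on normal salt, and of 26.4, 38.7 and 70.3 FPKM at 2pm. The ranges did not overlap, and the difference of 1.63 ± 0.22 passed (adjusted p = 2.5e-05). In Per1KO it had 72.6 to 108 FPKM at 2am and 66.4 to 110 at 2pm, and the difference between the time differences, -1.61 ± 0.32, passed (adjusted p = 0.010). The other gene of the 13 that passed by time in SS on normal salt, where 26.3% of all genes passed, was Cand1, which exchanges substrate receptors on cullins (0.32 ± 0.08). The list median was 0.04. In SS on high salt 2 of the 13 passed by time, Sgk1 higher (0.83 ± 0.20) and Ppp3ca lower at 2am (-0.26 ± 0.07), where 5.44% of all genes passed. They did not pass in 3 and 7 of 10 fits that each left out 1 library. At 2pm on normal salt Sgk1 alone of the 13 passed by genotype, higher in Per1KO (1.14 ± 0.22), where 0.372% of all genes passed. It did not pass in 4 of 12 such fits. By genotype, at 2pm on high salt, 5 of the 13 were lower and 0 higher in Per1KO, where 29.8% of all genes passed and 15.7% were lower, with a list median of -0.12. They include Cab39 and Cab39l, the MO25 scaffolds that activate SPAK (-0.32 ± 0.06 and -0.38 ± 0.10), Nedd8, the modifier that activates cullins (-0.24 ± 0.06), and Cops5, the COP9 subunit that removes it (-0.43 ± 0.11). Cab39 had 35.8 to 42.4 FPKM in Per1KO and 43.8 to 54.9 FPKM in SS, which do not overlap. Cops5 did not pass without SS replicates 4 and 5 (-0.22, adjusted p = 0.065). At 2am on high salt 1 of the 13 passed, Ppp1r1a, a phosphatase inhibitor of the distal tubule (-0.83 ± 0.22). There 8.95% of all genes passed and 4.64% were lower, so that this count was near the share of all genes. Ppp1r1a did not pass in 7 of 10 fits that each left out 1 library.

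Among other cotransporters that SPAK and OSR1 regulate, Slc12a2 (NKCC1, 0.20 ± 0.07) and Slc12a7 (KCC4, 0.18 ± 0.06) passed in SS on normal salt, both higher at 2am, and each did not pass in 7 of 12 fits that left out 1 library. On high salt at 2pm Slc12a4 (KCC1) was higher in Per1KO (0.47 ± 0.10). Slc12a1, the thick ascending limb cotransporter, passed in no genotype or time comparison within a diet.

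Of 14 other genes of distal convoluted tubule transport and identity, 12 were tested. In SS on normal salt 3 of the 12 passed by time, near the 26.3% of all genes that passed, with a list median of 0.0002. Slc8a1, the sodium-calcium exchanger gene (0.93 ± 0.29), and Cnnm2, a magnesium homeostasis gene (0.45 ± 0.10), were higher at 2am. Tfap2b, a transcription factor gene of the segment, was lower (-0.51 ± 0.10). Slc8a1 did not pass in 2 of 12 fits that left out 1 library. In SS on high salt 2 of the 12 passed by time, where 5.44% of all genes passed. Tfap2b was again lower at 2am (-0.68 ± 0.13) and Slc8a1 higher (1.29 ± 0.37). Slc8a1 did not pass without 2pm replicates 4 and 5 (0.72, adjusted p = 0.19), nor in 7 of 10 fits that left out 1 library. By genotype on high salt at 2am 3 of the 12 were lower in Per1KO and 0 higher, where 8.95% of all genes passed and 4.64% were lower, with a list median of -0.46. They were Egf, the epidermal growth factor gene (-0.81 ± 0.22), Fxyd2, the sodium pump gamma subunit gene (-0.60 ± 0.15), and Bsnd, the chloride channel subunit barttin (-0.54 ± 0.14). Egf and Bsnd did not pass in 6 of 10 fits that each left out 1 library, and Fxyd2 in 1. Egf had 17.3 to 29.3 FPKM in Per1KO and 30.9 to 40.2 FPKM in SS, which do not overlap. The summed FPKM of the 6 distal convoluted tubule markers, of which Egf is 1, lay at 47.9 to 73.1 in Per1KO, against 72.7 to 85.7 in SS. At 2pm on high salt Fxyd2 alone of the 12 passed (-0.61 ± 0.15), where 29.8% of all genes passed. On normal salt no gene of the list passed by genotype, where 4.18% of all genes passed at 2am and 0.372% at 2pm.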

How the data were processed

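FPKM of each gene and library were deposited by the authors, in a separate table for each diet. Per the submitters' processing notes, tools included featureCounts 1.5.0-p3, HISAT2 2.0.5, fastp and StringTie 1.3.3b. No genome build was named in the sources used here. FPKM times gene length was a whole multiple of 1 step per library for 100% of values within 0.01, which recovered whole fragment counts and hence the depth of the deposited values. The authors' FPKM used library sizes of 0.882 to 1.158 of these totals on high salt and 0.911 to 1.074 on normal salt, so that a difference depends on this scaling, which was tried both ways.

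A gene entered a fit when 5 or more libraries of the table held 1 FPKM or more, and log2(FPKM + 1) was tested with limma 3.58.1 in R 4.3.3: 14899 on high salt, 13436 on normal salt and 13260 on both. All 10 genes followed here passed this filter. Each table had 1 fit of 4 group means (empirical Bayes with an intensity trend, spread pooled over groups, two-sided, Benjamini-Hochberg over all genes), and interactions with diet came from 1 fit of all 43 libraries. The self-test on simulated data ran the same code. Nothing in the labels says more of the rats than 1 title per library, so p-values measure the spread between these libraries.

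The 10 genes, the gene lists and the tests were chosen with earlier results of these data known. Of the other lists, genes that passed within a diet are named, at most 4 with the smallest p for each list and comparison, and the 5 genes most like Slc12a3 were taken by the lower of their 2 correlations. Tests of those lists between diets are not reported here. Replicate numbers that the genotypes and times share were not taken as a pairing: same-numbered libraries had a mean residual correlation of 0.032 on high salt and 0.019 on normal salt. Single pairs ran from -0.23 to 0.42 on high salt and from -0.53 to 0.61 on normal salt, so the means do not show that no libraries are paired. Alternatives were a pseudocount of 0.1, no filter, median-ratio rescaling, the replicate block, voom on recovered fragments, only the groups compared, library series as a term, and each library left out. Omitting replicates 4 and 5 of SS high salt 2pm together with replicate 5 of SS normal salt 2pm, as far as a comparison uses them, was added after seeing the data. Pecam1, an endothelial marker, was not found in the tables used here. Some results of the cotransporter list are not reported here. No column lacked a sample.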

Additional observations from a re-analysis of the deposited data

Results flagged for a closer look

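In 7 of 80 sets of values of a gene in a group, 1 library stood far from the others by Dixon's test, which chance flags in about 1 of 20 sets. On normal salt at 2pm, Per1KO replicate 1 was high in 3 genes: Klhl3 at 8.14 FPKM (others 5.50 to 5.84), Cul3 at 26.1 FPKM (others 21.6 to 22.7) and Kcnj10 at 14.4 FPKM (others 8.67 to 10.7). On high salt at 2am, SS replicate 1 was high in Wnk1, at 58.3 FPKM (others 44.1 to 47.3), and in Klhl3, at 14.4 FPKM (others 7.15 to 7.72). Per1KO replicate 1 of high salt at 2am had 7.21 FPKM of Trpm6 (others 4.48 to 5.14). SS replicate 2 of normal salt at 2pm had 10.1 FPKM of Wnk4 (others 3.34 to 5.65).

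In 3 cases an effect differed between diets by the interaction term of limma. On normal salt genotype and time cannot be told apart from library series, so a series effect need not cancel in this term. The genotype difference at 2pm, Per1KO minus SS, differed for Cul3 by -0.44 and for Wnk4 by 0.52, high minus normal salt. The time difference in Per1KO, 2am minus 2pm, differed for Stk39 by -0.62, high minus normal salt, where 3.31% of all genes passed.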

How the results depend on the processing

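Counts are of the 10 genes. The shares of all genes under these alternatives are not given here, and they may change with the setting as well. The counts therefore describe only how the calls depend on the processing, not how the 10 genes compare with all genes. With voom on recovered fragments 6 passed by genotype at 2pm and 1 by time in Per1KO on high salt, 1 by genotype at 2am on normal salt and 4 by genotype and diet at 2pm. In fits of only the groups compared, 2 passed by genotype at 2am and 1 by time in Per1KO on high salt, and on normal salt 2 by genotype at 2am and 2 by time in SS. Without the filter 0 passed by time in Per1KO on normal salt and 1 by genotype and diet at 2pm. With the replicate block 1 passed by genotype at 2am on high salt (Trpm6, adjusted p = 0.025) and 1 by time in Per1KO on normal salt (Trpm6 lost), and by time in SS on normal salt 3 passed (Wnk1 lost), while the block changed no other call of the 10. With 1 library allowed to cross, 7, 3 and 2 genes stood apart by diet in Per1KO at 2am, SS at 2am and SS at 2pm, and after median-ratio rescaling 0 in SS at 2am. With 1 library left out, the counts ran 0 to 1 by genotype at 2am, 1 to 2 by time in SS, 0 to 1 by time in Per1KO and 0 to 1 by genotype and time on high salt. On normal salt they ran 0 to 2 by time in Per1KO and 0 to 1 by genotype and time. By genotype and diet at 2pm they ran 1 to 3, and by diet 1 to 5 in Per1KO at 2am, 1 to 2 in SS at 2am and 1 to 2 in SS at 2pm. Slc12a3 on normal salt changed sign with voom by genotype at 2am (0.11) and with 1 library left out, ranging over -0.0997 to 0.0718 by genotype at 2am, -0.28 to 0.41 by genotype at 2pm, -0.15 to 0.54 by time in SS and -0.43 to 0.26 by genotype and time. Per1 on normal salt at 2pm ranged over -0.27 to 0.0016. The cause of these changes was not tested. Kcnj10 by time in SS on normal salt, Trpm6 by time in SS on both diets, Wnk4 by genotype on high salt at 2pm, Cul3 by genotype and diet at 2pm and Stk39 by time and diet passed under every alternative run. Depth limits the genes of few fragments most: the lowest library held 31 of Klhl3 and 57 of Kcnj10.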
